A study of Homo sapiens with 6 samples.

Results

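Guidance genes code for the cell-surface receptors and the cues through which cells steer by contact and by gradients. The set described here held every protein-coding gene whose symbol starts with PLXN, SEMA, EPHA, EPHB, EFNA, EFNB, SLIT1 to SLIT3, ROBO or UNC5, together with NRP1, NRP2, NTN1 and NTN4. This gave 69 of 20052 protein-coding genes of the GRCh38 gene table, of which 35 were receptors and 34 were ligands. UNC50 and UNC5CL entered the receptors by their letters alone and are not netrin receptors, and neither held a peak. EFNA4-EFNA3 is a readthrough gene that spans EFNA4 and shares its 1 peak, which was counted once among peaks.

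The study asked which polyadenylated RNAs carry N1-methylguanosine (m1G), a guanine methylated at a position that takes part in base pairing. Fragmented polyA+ RNA of PANC-1, an established cell line from a human pancreatic ductal adenocarcinoma, was precipitated with an antibody against m1G and sequenced beside unprecipitated input RNA. One group of cells was labelled WT control and the other TRMT5 KD. In the TRMT5 KD cells, siRNA against TRMT5, a tRNA m1G methyltransferase, had acted for 4 days. Both groups were reverse-transfected with siRNA, per the treatment protocol. Control and knockdown were each represented by 1 input and 2 m1G precipitates, so there were 6 libraries, and the labels do not say whether the precipitates came from separate cultures.

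Plexins receive semaphorins, in many cases with a neuropilin as co-receptor, and turn the signal on small GTPases and the cytoskeleton. Eph receptor tyrosine kinases bind ephrins on a neighbouring cell, and the ephrin-bearing cell can signal in return. ROBO receptors bind SLIT proteins, and UNC5 receptors bind netrins. These families are known from axon growth and are also studied in epithelia and in pancreatic cancer, where SLIT and ROBO genes are among those found altered.

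The deposited data were 2 peak lists for the whole series, and neither marked a condition, a library or a replicate. The MeTDiff list held 18431 peaks, each with a strand, 1 or more blocks and a fold of precipitate over input. The MACS2 list held 6264 summits, each a single base with a score on the −log10 scale of a p- or q-value. Every fold and score below is the authors' own value for that peak, so it has no replicate error, and values were ranked only within their own list. Depth is unknown, the control and TRMT5 KD cells could not be set against each other, and TRMT5 per library was not analysed here. Of 6 ductal epithelial marker genes, 4 held a MeTDiff peak (KRT8, KRT18, KRT19 and EPCAM, but not KRT7 or CDH1). The same held for 2 of 6 mesenchymal, 2 of 5 neuronal, 0 of 5 endothelial and 0 of 5 immune markers. In a gene without a peak, little RNA and little m1G cannot be told apart, and the part of RNA level in any share below was not tested.

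A MeTDiff peak was present in 33 of the 69 guidance genes, 47.8% with a 95% Wilson interval of 36.5 to 59.4, beside 35.1% of all protein-coding genes. Among receptors the share was 15 of 35 (42.9%, interval 28.0 to 59.1). Among ligands it was 18 of 34 (52.9%, interval 36.7 to 68.5), and the intervals of receptors and ligands overlapped over most of their length. With only peaks at a false discovery rate at or below 0.01, the shares were 15 of 35 (42.9%) and 15 of 34 (44.1%). The median false discovery rate was 0.000394 for receptor peaks and 0.00257 for ligand peaks. A MACS2 summit lay in 20 of 69 members (29.0%, interval 19.6 to 40.6), beside 18.0% of all protein-coding genes. Receptors, with 10 of 35 (28.6%), and ligands, with 10 of 34 (29.4%), hardly differed in this share. All 20 members with a summit also held a MeTDiff peak, beside 3182 of the 3603 protein-coding genes with a summit (88.3%). No interval was computed for this share, which rests on 20 genes. The intervals cover counting error over genes only, and genes are not replicates of a condition.

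**Figure D1:**
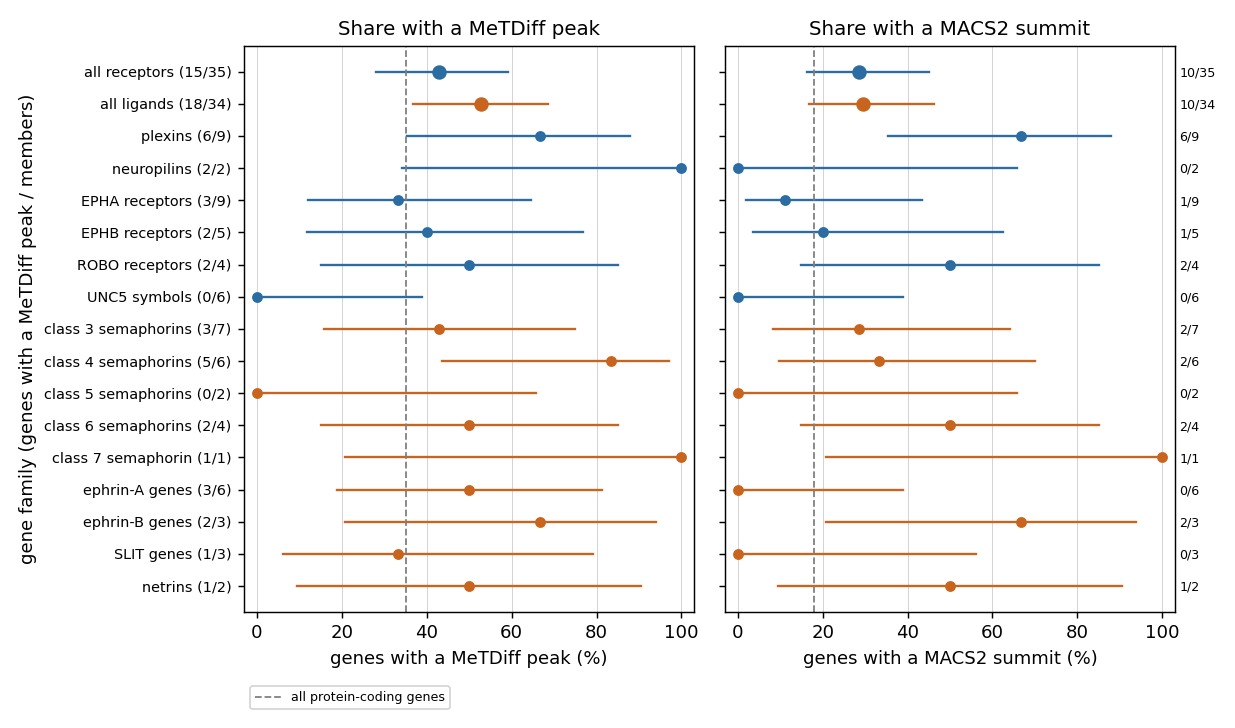
Share of genes in each guidance family that held a MeTDiff peak (left, %) or a MACS2 summit (right, %), with receptors in blue and ligands in orange. Points are shares, lines are 95% Wilson intervals and the fractions are genes counted over members. The dashed lines mark the 35.1% and 18.0% of all protein-coding genes. In the left panel the neuropilins (2 of 2) and the class 7 semaphorin (1 of 1) sit furthest right. Class 4 semaphorins come next, then plexins and ephrin-B genes at 66.7%, and the UNC5 symbols and class 5 semaphorins sit at 0.

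By family, plexins held a peak and a summit in 6 of 9 genes, and class 4 semaphorins held a peak in 5 of 6. Eph receptors held a peak in 5 of 14 genes (35.7%, interval 16.3 to 61.2), close to the 35.1% of all protein-coding genes. Ephrins held one in 5 of 9 (55.6%, interval 26.7 to 81.1), a count that takes the peak shared by EFNA4 and the readthrough gene for each. No peak or summit was found in the 6 UNC5 symbols or in the 2 class 5 semaphorins. A split of the ligands chosen after their values were seen gave 13 of 22 membrane-bound ligands with a peak (59.1%) and 5 of 12 secreted ones (41.7%). The intervals were 38.7 to 76.7 and 19.3 to 68.0, and the readthrough gene was counted among the membrane-bound ligands.

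The 36 members with neither a peak nor a summit were often long genes. Their median span was 157638 bp, against 31733 bp for the 33 members with a peak and 24098 bp for all protein-coding genes. In the 33 members that fall in the longest of 4 equal classes of gene span, 65035 bp or more, 9 held a peak (27.3%) beside 36.8% of all genes of that class. In the class below it, 11 of 14 members held one (78.6%) beside 40.2%, and 9 of 14 held a summit (64.3%) beside 19.3%. Receptors without either were EPHA1, EPHA3, EPHA4, EPHA5, EPHA6, EPHA8, EPHB1, EPHB3, EPHB6, PLXNA2, PLXNA4, PLXNC1, ROBO2, ROBO4, UNC50, UNC5A, UNC5B, UNC5C, UNC5CL and UNC5D. Ligands without either were EFNA1, EFNA2, EFNA3, EFNB2, NTN4, SEMA3A, SEMA3C, SEMA3D, SEMA3E, SEMA4A, SEMA5A, SEMA5B, SEMA6A, SEMA6D, SLIT1 and SLIT2. EPHA5 and EPHA6 are known mainly from neural tissue and ROBO4 from endothelium, but ROBO3, known from commissural axons, held 4 peaks. Whether the tissue of expression had a part was not tested. EFNB2, the partner of EPHB4, and PLXNC1, the receptor of SEMA7A, are partners of genes that held some of the strongest peaks.

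Some guidance peaks and summits lay beside a transcription start, and the DNA around 6 such starts is shown because peaks or summits described below are located from them. Each sequence runs from 70 bases before a start listed by RefSeq (GRCh38.p14) through 30 transcribed bases, 5′ to 3′ on the gene's strand, with the transcribed bases in capitals. The windows are chr15:90184850-90184949 (plus strand) and chr15:90201260-90201359 (plus) for SEMA4B, chr1:16156040-16156139 (minus) for EPHA2, chrX:154458211-154458310 (plus) for PLXNA3, chrX:68828951-68829050 (plus) for EFNB1 and chr3:79019430-79019529 (minus) for ROBO1.
SEMA4B first start: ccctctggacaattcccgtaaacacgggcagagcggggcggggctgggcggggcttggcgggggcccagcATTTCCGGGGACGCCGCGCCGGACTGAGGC
SEMA4B interior start: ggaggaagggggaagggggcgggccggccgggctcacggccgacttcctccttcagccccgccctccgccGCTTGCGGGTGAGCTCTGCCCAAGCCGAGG
EPHA2: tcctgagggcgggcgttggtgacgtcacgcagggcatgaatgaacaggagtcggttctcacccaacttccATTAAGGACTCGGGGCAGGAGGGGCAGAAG
PLXNA3: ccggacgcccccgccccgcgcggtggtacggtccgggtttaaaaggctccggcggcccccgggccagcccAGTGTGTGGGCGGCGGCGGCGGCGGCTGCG
EFNB1: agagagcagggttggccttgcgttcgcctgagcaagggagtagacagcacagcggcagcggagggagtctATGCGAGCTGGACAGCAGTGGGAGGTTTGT
ROBO1 interior start: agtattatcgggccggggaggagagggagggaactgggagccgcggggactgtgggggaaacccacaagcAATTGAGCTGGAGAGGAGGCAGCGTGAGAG

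Plexins held 29 peaks and 23 summits, the most of any family. PLXNA1, a receptor that pairs with neuropilins for class 3 semaphorins, held 9 peaks with folds of 1.71 to 9.0 and 8 summits with scores of 10.5 to 33.0. Of its 9 peaks, 5 lay near the 3′ end of the gene, between 698 and 2996 bp from it, and these included its largest folds, 9.0 and 8.14. Its highest summit, 33.0, lay inside a peak of 3 blocks with a fold of 7.05 near the middle of the gene. PLXNA1 thus carried many moderate peaks rather than a single large one.

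PLXNA3, another neuropilin partner, held 6 peaks along the 5′ part and the middle of the gene, with folds of 14, 5.0, 5.86, 3.0, 4.2 and 5.5 from 5′ to 3′. The peak with a fold of 14 began at base 51 of the gene, downstream of the bases printed above, and a summit with a score of 16.6 lay on its first base. The other 3 summits scored 12.4, 6.45 and 8.73, and the first of these lay 754 bp from any block. PLXNA3 was the plexin with the largest fold, and its largest fold was at its 5′ end.

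PLXNB1, the receptor of SEMA4D, held folds of 3.0, 4.75 and 8.0 from 5′ to 3′, the last lying 350 bp from the 3′ end. Its single summit scored 2.83, near the lower end of the list, and lay at -102 bp from an interior listed start, that is upstream of it, and far from every peak. PLXNB2, which receives class 4 semaphorins, held 5 peaks with folds of 2.09 to 4.45, none of which reached the top 25% of the list (folds above 6.91), and 6 summits with scores of 4.91 to 23.3. PLXNB3, a receptor of SEMA5A, held 1 peak with a fold of 11.5, 245 bp from the 3′ end, and a summit with a score of 15.1 that lay 42 bp outside it. A further peak inside the PLXNB3 span, with a fold of 8.17, belonged to another gene ID and was not counted. PLXND1, the receptor of SEMA3E, held 5 peaks with folds of 2.03 to 5.07 and summits of 34.7, 11.4 and 7.19, of which the last lay 125 bases into the gene, where no peak was listed. Folds and scores thus ranked the plexins differently, with PLXNA3 first by fold and PLXND1 first by score.

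Both neuropilins held peaks and neither held a summit. NRP1 had folds of 4.17, 4.43, 2.25 and 2.14 from 5′ to 3′, the first of them 105 bp from its 5′ end, and NRP2 had 1 peak with a fold of 3.12. Of these 5 peaks, 1 exceeded the whole-list median fold of 4.24.

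EPHB4, the receptor of EFNB2, had the strongest receptor peak. From 5′ to 3′ its 8 peaks had folds of 3.0, 5.98, 4.71, 8.25, 2.17, 43.1, 8.02 and 2.2. The peak of 43.1 had 4 blocks between 100813714 and 100818530 on the minus strand of chromosome 7 and ranked 39 of 18431. Its 4 summits scored 24.4, 67.5, 5.45 and 21.7, and the summit of 67.5, rank 79 of 6264, lay 51 bp outside a block of that same peak. All 4 summits lay outside the blocks, by 18 to 93 bp, so the lists placed the signal close together without sharing a base.

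EPHA2, a receptor of EFNA1, held 7 peaks with folds of 6.96, 3.39, 7.13, 5.01, 7.15, 2.69 and 7.69 from 5′ to 3′. Its 4 summits scored 39.8, 28.0, 24.2 and 20.0, again from 5′ to 3′, and the summit of 39.8 lay on the first transcribed base, the first capital of the sequence printed above. The first peak of EPHA2 began at base 51, so that summit and peak lay 50 bp apart. EPHA2 had no fold in the top 10% of the list (above 11) but had 1 of the 4 guidance summits in the top 10% by score (above 37.7).

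EPHB2, which binds ephrin-B ligands, held 5 peaks with folds of 1.2, 7.55, 1.4, 7.5 and 2.83, the first of them 0.815 of the way along the gene, and no summit. The peak of 1.2 had the smallest fold of all guidance peaks. EPHA10, a receptor thought to lack kinase activity, held 1 peak with a fold of 3.0, and EPHA7 held 1 with a fold of 2.25.

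Of the ROBO receptors, ROBO1 held 2 peaks with folds of 9.64 and 7.08 and a summit with a score of 12.2. All 3 lay just downstream of an interior listed start, printed above, which is far inside the gene: the peak of 7.08 lay 303 bp from that start and the summit 156 bp from it. ROBO3, known for the crossing of commissural axons, held folds of 5.5, 2.5, 2.5 and 3.64 and a summit with a score of 4.45 inside the first peak. All 4 ROBO3 peaks carried the same false discovery rate, 3.63e-06, the lowest of any guidance peak.

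**Figure D2:**
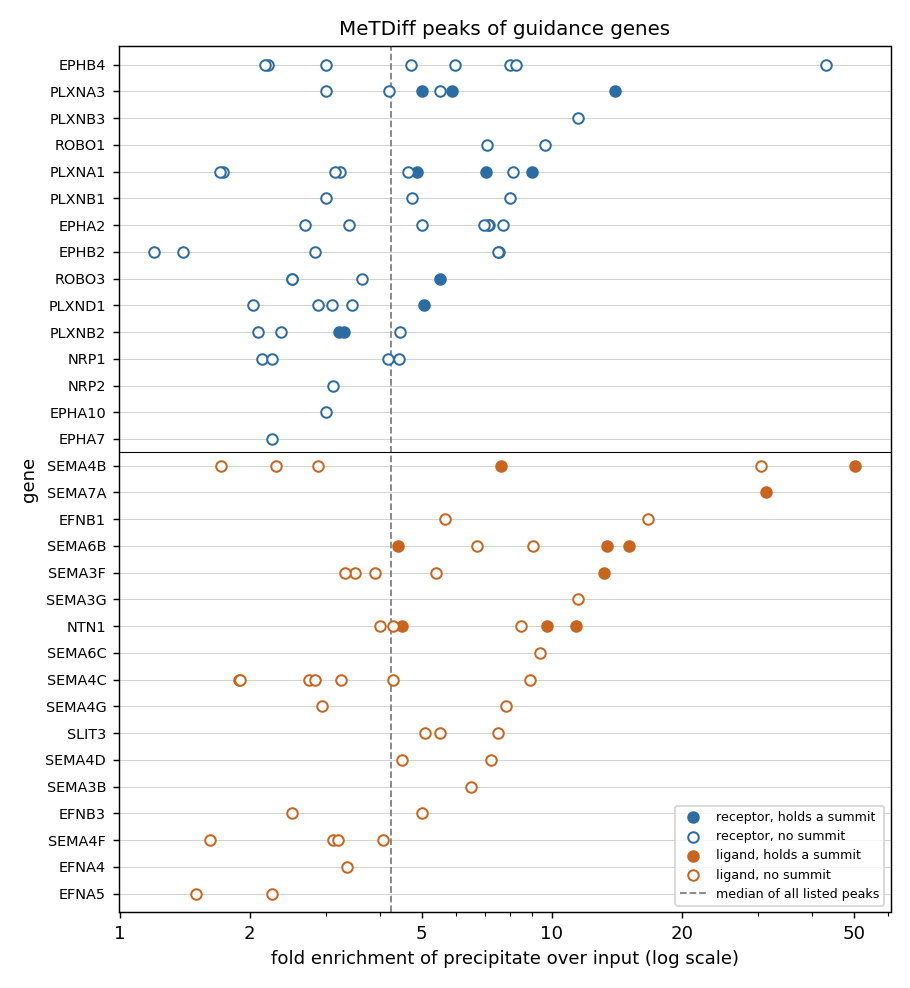
Fold enrichment (log scale) of each of the 113 MeTDiff peaks in guidance genes, with 1 gene per line, receptors in blue above and ligands in orange below. Each point is 1 peak, filled where it holds a summit, and the dashed line is the whole-list median of 4.24; SEMA4B at 50.4 and 30.4, EPHB4 at 43.1 and SEMA7A at 31.3 stand above all others.

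Among the ligands, SEMA4B, a membrane semaphorin, had the strongest peak of all guidance genes in both lists. Its 6 peaks had folds of 30.4, 50.4, 2.3, 7.62, 2.87 and 1.72 from 5′ to 3′. The peak of 50.4, rank 17 of 18431, covered 90201373 to 90201571 on chromosome 15 and lay inside the gene, with its midpoint 143 bp from the interior start printed above. It held the summit with a score of 88.5, rank 17 of 6264, 75 bp from that start. The peak of 30.4, rank 133, began at base 51 from the first start and held no summit. The remaining summits scored 21.5, inside the peak of 7.62, and 16.2, which lay 61 bp outside a block. The 2 largest folds of SEMA4B were thus beside its 2 printed starts, and the other 4 were at or below 7.62.

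SEMA4C, a ligand of PLXNB2, held 7 peaks, the most of any ligand, with folds of 4.29, 3.25, 2.83, 2.74, 8.9, 1.9 and 1.89 from 5′ to 3′. Its summits scored 7.25 and 7.8, and the summit of 7.25 lay at -15 bp from a listed start. SEMA4D, the ligand of PLXNB1, held folds of 4.5 and 7.25 and no summit. SEMA4F held 4 peaks with folds of 3.11, 4.07, 3.2 and 1.62, and SEMA4G held folds of 2.94 and 7.83. The SEMA4G span also held a peak of 3.75 on the opposite strand under another gene ID, which was not counted. It ran from 100978862 to 100979259 and so overlapped the counted peak of 2.94, which ran from 100978852 to 100979232. Whether the 2 are the same signal was not tested. SEMA4A was the only class 4 member without a peak.

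SEMA6B, a ligand of class A plexins, had folds of 9.06, 4.4, 15.1, 6.72 and 13.4 from 5′ to 3′ and summits of 3.25, 32.1, 12.4 and 42.2. The summits of 32.1 and 42.2 lay inside the peaks of 15.1 and 13.4, so here the larger scores went with the larger folds. SEMA6C held 1 peak with a fold of 9.37, in the top 25% of its list, and a summit with a score of 2.19, the lowest of all guidance summits. SEMA7A, a membrane-anchored semaphorin that binds PLXNC1, held 1 peak with a fold of 31.3 (74410389 to 74410639 on the minus strand of chromosome 15, rank 114), 1226 bp from its 3′ end. The summit inside it scored 16.9, close to the whole-list median of 16.4.

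The secreted class 3 semaphorins held peaks in SEMA3F, SEMA3G and SEMA3B. SEMA3F, which binds NRP2, had folds of 13.2, 3.5, 5.38, 3.32 and 3.89 from 5′ to 3′, and the peak of 13.2 lay 137 bp from its 5′ end and held a summit with a score of 9.13. Its other summits scored 13.8 and 7.36. SEMA3G held a peak with a fold of 11.5 and a summit of 2.88, and SEMA3B held a peak with a fold of 6.5 and no summit.

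EFNB1, a transmembrane ephrin, held a peak with a fold of 16.7 that began at base 50 of the gene and a second with a fold of 5.67. Its summit scored 21.9 and lay on base 10, within the capitals printed above. EFNB3, another transmembrane ephrin, held folds of 5.0 and 2.5, while its summit of 20.3 lay 118 bp from the 5′ end and 3877 bp from any block. The ephrin-A genes, whose products are anchored by a lipid, held smaller values: EFNA4 had 1 peak with a fold of 3.35, EFNA5 had folds of 2.25 and 1.5, and none held a summit. All 3 ephrin-A folds were below the whole-list median.

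NTN1, the secreted netrin-1, held 6 peaks with folds of 4.5, 4.3, 9.75, 4.0, 8.5 and 11.4 from 5′ to 3′. The last 4 lay between 1866 and 3830 bp from the 3′ end. Its summits of 5.98, 19.6 and 30.1 all lay inside peaks, whose folds of 4.5, 9.75 and 11.4 took the same order. SLIT3, a secreted ligand of ROBO receptors, held folds of 5.5, 5.1 and 7.5 in its 3′ part, all with a false discovery rate of 0.000776, and no summit.

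**Figure D3:**
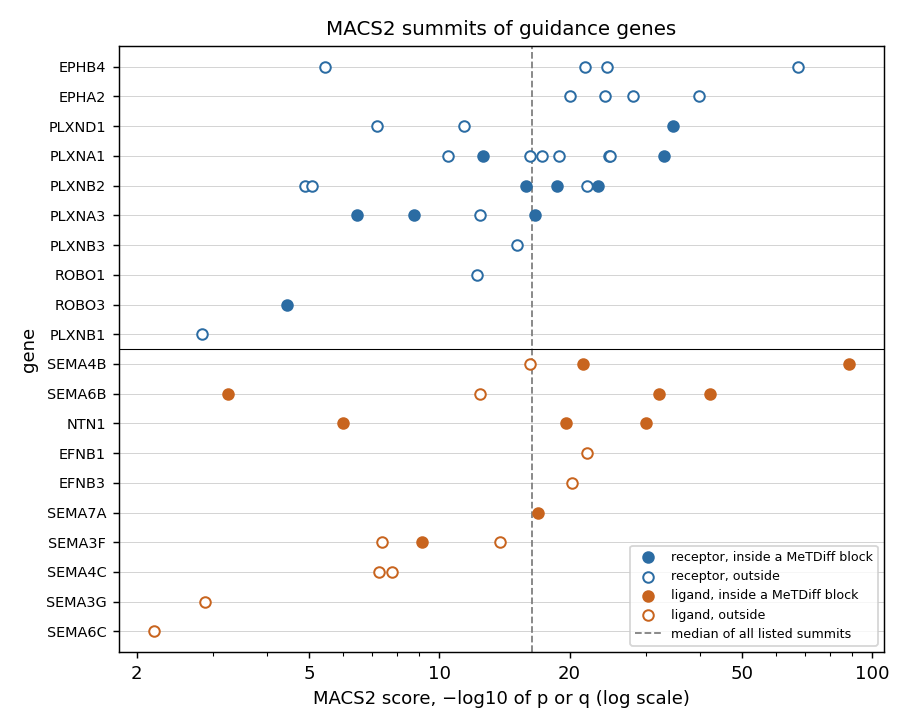
Score (−log10 of p or q, on a log axis) of each of the 53 MACS2 summits in guidance genes. Each point is 1 summit, filled where it lies inside a MeTDiff block, and the dashed line is the whole-list median of 16.4; SEMA4B at 88.5 and EPHB4 at 67.5 stand highest.

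Set side by side, the 62 receptor peaks had a median fold of 4.19 (95% interval 3.12 to 5.01, range 1.20 to 43.1) and the 51 ligand peaks one of 4.5 (3.89 to 6.72, range 1.5 to 50.4). These intervals overlapped, and both held the whole-list median of 4.24. Receptors with a peak held a median of 4 peaks each (interval 1 to 6), and ligands 2 (interval 1 to 5). All protein-coding genes with a peak held a median of 2, a value that both intervals held. The median of the largest fold per gene was 7.55 for receptors (interval 4.43 to 9.64) and 8.9 for ligands (6.5 to 13.2), with the readthrough gene left out. It was 6.0 for all protein-coding genes with a peak. The receptor and ligand intervals overlapped, and only the receptor one held 6.0. Folds in the top 10% of the list made up 3 of 62 receptor peaks (EPHB4, PLXNA3 and PLXNB3) and 9 of 51 ligand peaks. The ligand peaks came from 7 genes, with SEMA4B and SEMA6B holding 2 each and SEMA7A, EFNB1, SEMA3F, SEMA3G and NTN1 holding 1 each. As shares these were 4.84% (interval 1.66 to 13.3) and 17.6% (9.57 to 30.3), and these intervals overlapped. Peaks of 1 gene share their source. Counted by gene, such a fold was held by 3 of 15 receptors with a peak (20.0%, interval 7.05 to 45.2). The ligand count was 7 of 17 (41.2%, interval 21.6 to 64.0), and these intervals overlapped as well. Summit scores had a median of 16.6 (12.2 to 21.9) over 33 receptor summits and 15 (7.36 to 21.5) over 20 ligand summits. Scores in the top 10% of their list made up 2 of 33 receptor summits (6.06%, interval 1.68 to 19.6) and 2 of 20 ligand summits (10.0%, interval 2.79 to 30.1), and these intervals overlapped.

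In both roles the share of peaks lay below that of all protein-coding genes at the 5′ end but not at the 3′ end. A peak was placed at an end when its midpoint, counted along its blocks, lay within 500 bp of it. At the 5′ end lay 4 of 62 receptor peaks (6.45%, interval 2.54 to 15.4) and 3 of 51 ligand peaks (5.88%, interval 2.02 to 15.9), beside 16.1% of the peaks of all protein-coding genes. At the 3′ end lay 4 receptor peaks (6.45%) and 5 ligand peaks (9.80%), beside 6.4%. Within 500 bp of any listed start lay 9 of 95 guidance peaks (9.47%, interval 5.06 to 17.0) against 20.4%, and 10 of 45 summits (22.2%, interval 12.5 to 36.3) against 30.6%. The median peak lay 0.752 of the way along the gene span in receptors (interval 0.64 to 0.839) and 0.864 in ligands (0.655 to 0.923). Over all protein-coding genes the median was 0.668, a value that both intervals held. A first base at position 50 or 51 of the gene, as in EFNB1, EPHA2, PLXNA3 and SEMA4B, was also found for 465 of the 16922 peaks of all protein-coding genes, beside 537 that began at bases 52 to 100. The 7 peaks at a 5′ end had folds of 3.0 to 30.4 with a median of 13.2 (interval 3 to 30.4). The 97 interior peaks had a median of 4.4 (interval 3.32 to 5). Folds at 5′ ends over all protein-coding genes were not computed. By role, the ligand 5′ peaks had folds of 13.2, 16.7 and 30.4, and the receptor ones 3.0, 4.17, 6.96 and 14. These are only 3 and 4 peaks. The ligand folds of 13.2 (SEMA3F) and 16.7 (EFNB1) had false discovery rates of 0.0186 and 0.038. Those of the receptor 5′ peaks were at or below 0.00245.

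**Figure D4:**
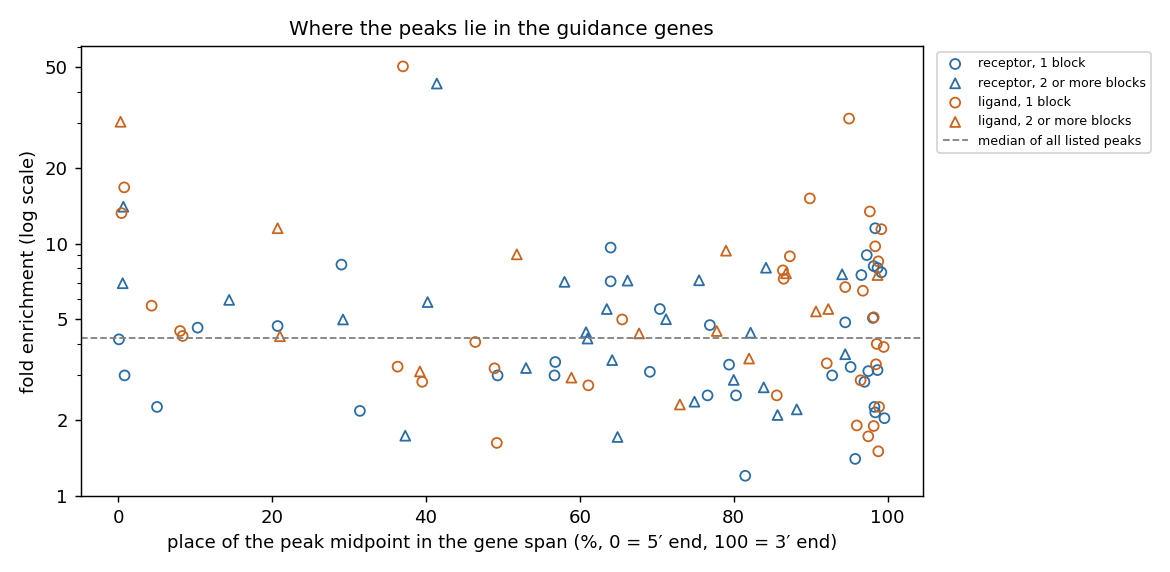
Fold enrichment (log scale) of each guidance peak against the place of its midpoint along the gene span (%, from the 5′ end at 0 to the 3′ end at 100). Colours give the role, circles are peaks of 1 block, triangles are peaks of 2 or more blocks, and the dashed line is the whole-list median of 4.24; most points lie in the 3′ part, and the few at the 5′ end include 30.4, 16.7, 14 and 13.2.

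Although all 20 members with a summit held a peak, 21 of the 53 summits lay inside a block. A summit lay inside a block in 11 of 33 cases for receptors (33.3%, interval 19.8 to 50.4) and 10 of 20 for ligands (50.0%, interval 29.9 to 70.1), beside 33.9% over all protein-coding genes. Allowing 100 bp raised this to 26 of 33 (78.8%) and 18 of 20 (90.0%), and to 72.2% over all protein-coding genes. The 32 guidance summits outside a block lay a median of 54.5 bp from one. The 20 guidance peaks that held a summit had a median fold of 7.33, against 3.89 for the 93 that did not. Receptor peaks holding a summit had a median of 5.29 (interval 3.31 to 9) and ligand peaks one of 12.3 (4.5 to 31.3), each over 10 peaks. These intervals overlapped, and the ligand peaks came from NTN1, SEMA6B, SEMA4B, SEMA3F and SEMA7A only. The EPHB4 peak of 43.1 was not among the receptor peaks, as its summit of 67.5 lay 51 bp outside a block. Across those 20 peaks, fold and score had a Spearman correlation of 0.43, given as a description because peaks of 1 gene share their source.

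The 60 members with a start in the RefSeq promoter table had 92 listed starts. Each peak midpoint or summit was given to its nearest listed start only. Counted in this way, 13 starts, in 11 genes, had one within 500 bp. In the 300 bases around those 13 starts the median G+C content was 78.0%, against 64.0% at the other 79 and 62.3% over all protein-coding starts. Guanine made up a median of 42% of the first 50 transcribed bases, against 34% at the others and over all genes. The letters GGGCGG (a GC box, CCGCCC on the other strand) occurred in 12 of the 13 windows (92.3%), in 56 of the other 79 member windows (70.9%) and in 56.3% of all protein-coding windows; the window of ROBO1 was the exception among the 13. TATAAA on either strand occurred in 0 of 13, in 3 of the other 79 (3.8%) and in 9.47% of all. A match describes the letters only. Windows of starts that lie close together, as in SEMA3F, overlap. The same values for starts of other genes with a peak or summit nearby were not computed. Whether these features are particular to guidance genes was therefore not tested.

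The signalling genes around the receptors were described from a list of 81 genes, chosen with earlier results of these data known. Of these, 45 held a peak (55.6%) and 28 a summit (34.6%), beside 35.1% and 18.0% of all protein-coding genes. Among 63 signal transducers, 41 held a peak (65.1%) and 24 a summit (38.1%), whereas among 18 co-receptors and other cues each count was 4 (22.2%). NTNG2, FLRT1, MET and L1CAM were the co-receptors and cues with a peak. Of the netrin receptors, DCC and the UNC5 receptors held neither and NEO1 held a summit without a peak, beside the 6 peaks of NTN1. Transducers in the top 10% of either list included INPPL1, an inositol phosphatase that binds EPHA2, with 6 peaks of up to 48.0 and 7 summits of up to 84.9. The adaptor GRB2 reached a fold of 23.4 and a score of 53.7, and the phosphatase PTPN11 reached 20.9 and 33.6. ROCK2, a kinase downstream of RHOA, reached 18.5 and 52.4, and RHOA itself 6.53 and 37.9. The actin regulator ENAH reached 16.8 and 29.9, the exchange factor TRIO 16.5 and 20.9, and RASA1, a RAS GTPase-activating protein, 14 and 13.4.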

How the data were processed

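The libraries were 2 inputs and 4 m1G precipitates of PANC-1 polyA+ RNA. The tools named, per the submitters' processing notes, are STAR 2.7.1, MACS2 2.2.5, SAMtools, Picard, bedtools, featureCounts, edgeR, DESeq2 and ChIPseeker on GRCh38; which libraries were pooled, and what each tool did, is not given in the sources used here. The deposited MACS2 score is on the −log10 scale, of p or q. The deposited MeTDiff columns hold a p-value, the log10 of a false discovery rate and a fold (a ratio, precipitate to input), as judged from the order and range of the columns.

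Spans came from the RefSeq gene table (GRCh38.p14). A MeTDiff peak was given to a gene when every row of its gene ID lay inside the span and the peak was on the gene's strand; a summit was given by position. Strand came from the RefSeq promoter table for 60 members and from the peaks for 5, and 4 without strand (SEMA3A, SEMA6A, UNC5B and UNC5D) held no peak. No test was run: shares have 95% Wilson intervals and medians distribution-free 95% intervals. The scripts were checked on simulated data and used Python 3.11.15, pandas 2.3.3 and SciPy 1.17.1.

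Members, roles and lists were chosen with earlier results of these data known. Every member with a peak or summit is named; those with both, or in the top 25% of a list, are described peak by peak, and pathway genes have values only in the top 10%. Alternatives changed the window, the placement of peaks, the ranks kept and the members.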

Additional observations from a re-analysis of the deposited data

How the results depend on the processing

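Of 74 alternative values for 14 results, 64 lay within the 95% interval of the main value and 10 lay outside it. Keeping only the top 50% of each list by rank gave, by its own construction, median folds of 7.06 for receptors and 7.72 for ligands and median scores of 24.2 and 21.9. The share of receptor summits inside peaks, 33.3%, became 63.6% when any base between a peak's start and end counted and 78.8% within 100 bp. The ligand share, 50.0%, became 90.0% within 100 bp and 77.8% for the top 50% of summits by score. The ligand share of peaks at the 3′ end, 9.80%, became 3.33% for the top 50% by fold and 3.92% with a 250 bp window; it rests on 5 peaks. The cause of the last 3 changes was not tested. Leaving out the readthrough gene, or the 2 symbols matched by letters alone, was chosen after seeing the data and gave shares with a peak of 51.5% and 45.5%. Taking peaks of any gene ID, and counting any listed start as a 5′ end, were also added after seeing the data and gave values within the intervals. No paired analysis was possible because the lists mark no replicate, and for the same reason no replicate could be left out. Of the 23 members with 2 or more peaks, 9 had a false discovery rate shared by 2 or more of them. No genome sequence or transcript model was used, so exons and UTRs were not assigned.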
